A study of Rattus norvegicus with 9 samples.

Results

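The genes described here are 7 genes of Schwann cells and of the myelin that these cells make in peripheral nerves: Pmp22, Pmp2, Prx, Ncmap, Egr2, Cldn19 and Pou3f1. They were chosen by symbol as known genes of this cell type, at a time when other results of these data were already known, and each was found on exactly 1 of the 30507 rows of the count table. All 7 passed the filter on low counts in every comparison. Their level was read in spinal cord segments around thoracic level 10 of female Sprague-Dawley rats by RNA-seq of poly(A) RNA, with 3 rats in each of 3 groups.

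Sham rats had the vertebral lamina removed without injury to the cord according to the study's methods, although their labels call them untreated. SCI rats received a contusion at thoracic level 10 and carried a plug without an electrode. SCI + SCS rats received the same contusion and epidural spinal cord stimulation from 1 day post-injury (dpi), at 10 kHz and 0.12 mA for 2 h per day. All rats were wild type and 8 weeks old at the start, and the cord around the injury was taken at 35 dpi. Injured rats with an implanted electrode and no current were not analysed here, so implant and current cannot be told apart.

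Schwann cells are the myelinating glia of peripheral nerve, while oligodendrocytes make the myelin of the brain and spinal cord. Both cell types share part of their myelin proteins but use different transcription factors and different adhesion proteins to build it. In the promyelinating stage a Schwann cell expresses Pou3f1, a POU-domain factor that acts together with Sox10 to switch on Egr2. Egr2, a zinc-finger factor, then drives the myelin genes. Schwann cells lie in the nerve roots attached to the cord, and they are known to enter the cord and to myelinate central axons after injury. Bulk RNA cannot tell more cells of a type from more RNA per cell, and the sources used here do not say how much root tissue was taken with the cord.

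The depth was 62844376 to 88358570 counts per library, so that 3 counts corresponded to 0.034 to 0.0477 CPM (counts scaled to a library of 1000000). Pearson's r between pairs of libraries ran from 0.8563 to 0.9767. Sham replicate 2 stood apart in carrying RNA of sensory neurons: Scn10a, a sodium channel of nociceptors, had 4873 counts there against 10 and 74 in the other Sham libraries, 7 to 24 in SCI and 7 to 215 in SCI + SCS. SCI replicates 1 and 3 carried skeletal muscle RNA, with a summed level of 19 muscle genes of 4790 and 1830 CPM against 202 to 357 CPM in all other libraries. For the 7 genes, calls that change without these libraries are given below. For the counts of gene lists, the larger changes or the range with single libraries left out are given.

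All 7 genes were well detected in the uninjured cord. On the per-length scale of the deposited FPKM values, which are scaled to gene length and library size, the order of the Sham levels was Pmp22, Pmp2, Prx, Ncmap, Cldn19, Egr2 and Pou3f1. Pmp22, a tetraspan membrane protein of compact myelin whose gene dosage is altered in Charcot-Marie-Tooth disease, had a mean level of 644 ± 161 FPKM (SD, n = 3). It lay far above the next gene. Pmp2, a fatty acid-binding protein of peripheral myelin, followed at 69.4 ± 5.96 FPKM. Its lowest Sham library, at 64.1 FPKM, was above the highest library of Prx, at 59.8 FPKM.

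Prx encodes periaxin, the scaffold that ties the outer Schwann cell membrane to the basal lamina, and Ncmap a membrane protein of noncompact myelin. Their Sham levels of 48.2 ± 15.7 and 48.1 ± 20.6 FPKM did not differ beyond their spread. Cldn19, a claudin of the tight junctions of Schwann cells, stood at 21.5 ± 6.43 FPKM. Its range of 14.1 to 25.4 FPKM overlapped that of Ncmap, 24.3 to 61.3 FPKM. The transcription factors were lowest, at 3.84 ± 1.82 FPKM for Egr2 and 2.36 ± 0.717 FPKM for Pou3f1, and their ranges overlapped.

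The order changed in 1 place after injury. In SCI, Ncmap had a mean level of 110 ± 36.2 FPKM and stood second, above Pmp2 at 83.4 ± 24.9 FPKM and Prx at 76.5 ± 24.8 FPKM, although the library ranges of these 3 genes overlapped. In SCI + SCS the means of the same genes were 99.8 ± 27.9, 95.2 ± 59.5 and 78.5 ± 23.9 FPKM, again with overlapping ranges. Pmp22 remained the highest in both groups, with 1170 ± 276 FPKM in SCI and 1150 ± 426 FPKM in SCI + SCS, and Pou3f1 the lowest, with 7.2 ± 1.17 and 4.81 ± 0.824 FPKM.

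The RefSeq promoter table (build GRCr8, not the mRatBN7.2 build of the deposited gene positions) held 5 of the 7 genes: Pmp22, Prx, Ncmap, Egr2 and Cldn19. In mRatBN7.2 the gene of Egr2 (ENSRNOG00000000640) spans chr20:21051277-21055562 and that of Ncmap (ENSRNOG00000048139) chr5:147610677-147618775, both on the minus strand. The 250 bases before the start of these 2 genes, the ones with an entry that were called higher in SCI, are shown 5′ to 3′ on the gene's strand. The Egr2 window is chr20:21054442-21054691 and the Ncmap window chr5:152902415-152902664, both in GRCr8 and on the minus strand, with a GC content of 62% and 55.2%.
Egr2: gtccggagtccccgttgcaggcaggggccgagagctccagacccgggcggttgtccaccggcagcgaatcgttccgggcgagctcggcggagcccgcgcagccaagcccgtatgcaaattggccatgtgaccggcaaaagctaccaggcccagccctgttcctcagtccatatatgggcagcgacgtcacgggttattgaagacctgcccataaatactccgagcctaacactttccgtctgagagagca
Ncmap: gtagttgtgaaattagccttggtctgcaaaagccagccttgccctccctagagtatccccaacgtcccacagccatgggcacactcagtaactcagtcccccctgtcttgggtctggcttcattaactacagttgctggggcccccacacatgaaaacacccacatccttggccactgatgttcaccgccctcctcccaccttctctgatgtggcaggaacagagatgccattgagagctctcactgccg
Both strands of the 5 windows were searched for the core letters that EGR factors bind, GCGNGGGCG, and for the SOX cores ACAAAG and AACAAT. None of the 5 windows held any of them, so no letters are in capitals. Of all 33469 promoter windows of the same length, 4.29% held the EGR core and 24.5% either SOX core. The search says only that these letters are not in these windows.

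The comparison of SCI with Sham addresses what the contusion left behind at 35 dpi. Levels of single genes from here on are CPM, scaled by TMM (trimmed mean of M values) normalization. Summed levels of gene lists are CPM without TMM scaling, so a gene can lie slightly above the sum that holds it. Pou3f1, Egr2 and Ncmap were called higher in SCI, none of the 7 genes was called lower, and all 7 fold changes were positive. A gene was called when its adjusted p was under 0.05 and its absolute log2 fold change (log2FC) was over 1. The count of 3 of 7 called higher stands against 13.4% of the 17822 genes tested called higher and 26.9% called in either direction. The median log2FC was 0.84 over the 7 genes and 0.02 over all genes tested.

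Pou3f1 had 5.99, 10.8 and 9.39 CPM in the Sham libraries, 26.1, 30.2 and 24.1 CPM in the SCI libraries and 20.6, 14.7 and 17 CPM in the SCI + SCS libraries. The 3 groups did not overlap with each other, SCI was highest, and SCI + SCS lay between. Its level was 3.03-fold higher in SCI than in Sham (log2FC 1.60 ± 0.23 SE, 95% interval 1.05 to 2.15, adjusted p = 0.00286, quasi-likelihood test of edgeR, p adjusted by Benjamini-Hochberg). The call held when any single library was left out, with log2FC from 1.39 to 1.77 and edgeR adjusted p from 0.00378 to 0.0126. Oligodendrocyte precursors and some neurons also transcribe Pou3f1. Of 5 precursor genes tested, 1 was called higher and 1 lower in SCI (median log2FC −0.12). The higher one was Pdgfra, at 82.7 ± 31.4 CPM in Sham and 170 ± 41.2 CPM in SCI. The lower one was Gpr17, at 50.2 ± 8.77 and 10.8 ± 3.15 CPM. This total of 2 fell to 1 without SCI replicate 2 or 3 or Sham replicate 1 or 2. Over all single libraries left out it was 1 to 3. All 11 neuron genes were called lower, and 8 to 11 with single libraries left out. The summed level of the neuron genes was 3990 to 8350 CPM in Sham and 710 to 2060 CPM in SCI. The part of these cells in the Pou3f1 result was not tested.

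Egr2 had 7.22, 19.9 and 15.1 CPM in Sham, 26.5, 56.3 and 33.6 CPM in SCI and 44.7, 19.4 and 25.6 CPM in SCI + SCS. Every SCI library was above every Sham library, and the SCI + SCS libraries overlapped with both. The log2FC of SCI against Sham was 1.45 ± 0.43 SE (edgeR adjusted p = 0.0297). This call was lost without Sham replicate 3 (1.49, adjusted p = 0.0628), SCI replicate 2 (1.07, 0.0933) or SCI replicate 3 (1.53, 0.0614). The same gene is also transcribed in activated T cells and macrophages, whose marker genes moved too. The summed level of 9 macrophage and microglia genes was 511 to 564 CPM in Sham and 2030 to 3170 CPM in SCI, and that of 7 T cell genes 22.1 to 59.1 and 138 to 182 CPM. The T cell sum was mostly Cd4, with TMM-scaled means of 36.8 ± 18 CPM in Sham and 135 ± 33.6 CPM in SCI. Cd3e of the same list was at 0.267 ± 0.0578 and 2.09 ± 0.359 CPM. The part of T cells and macrophages in the Egr2 result was not tested.

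Ncmap had 15.8, 38.1 and 37.3 CPM in Sham, 48, 79 and 79.3 CPM in SCI and 79, 44.7 and 61.8 CPM in SCI + SCS. Sham replicate 1 was the lowest of the 9 libraries, and all injured libraries were above all Sham libraries. The log2FC of SCI against Sham was 1.16 ± 0.37 SE (edgeR adjusted p = 0.0372, 95% interval 0.29 to 2.03). The call was lost without Sham replicate 1, where the log2FC was 0.85, and without Sham replicate 2 (1.35, edgeR adjusted p = 0.0586), SCI replicate 2 (1.04, 0.107) or SCI replicate 3 (1.04, 0.11). Thus 2 of 7 genes were called higher without each Sham library in turn, 1 of 7 without SCI replicate 2 or 3, and 3 of 7 without SCI replicate 1. With both muscle-carrying SCI libraries out, only SCI replicate 2 was left, its spread was taken to be that of Sham, and 0 of 7 genes were called, Pou3f1 having a log2FC of 1.78 (edgeR adjusted p = 0.0587).

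The structural genes moved by less. Pmp22 had 1060, 1610 and 1700 CPM in Sham, 2180, 3030 and 2680 CPM in SCI and 3540, 1680 and 2420 CPM in SCI + SCS. The SCI libraries were all above the Sham libraries, while SCI + SCS replicate 2 fell within the Sham range. Its log2FC of 0.84 ± 0.23 SE passed the test for SCI against Sham (edgeR adjusted p = 0.0219) but not the fold threshold. With single libraries left out, the adjusted p from edgeR ran from 0.0268 to 0.0774.

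Prx had 196, 335 and 379 CPM in Sham, 353, 595 and 490 CPM in SCI and 627, 338 and 490 CPM in SCI + SCS. Cldn19 had 31.4, 54.4 and 56.3 CPM in Sham, 55.6, 81.3 and 75.8 CPM in SCI and 97.5, 47.4 and 66.2 CPM in SCI + SCS. For both genes SCI replicate 1 fell among the Sham libraries. The log2FC of SCI against Sham was 0.64 ± 0.29 SE for Prx (edgeR adjusted p = 0.107) and 0.56 ± 0.25 SE for Cldn19 (edgeR adjusted p = 0.104).

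Pmp2 had 111, 112 and 128 CPM in Sham, 106, 169 and 143 CPM in SCI and 263, 71.6 and 134 CPM in SCI + SCS. The SCI + SCS libraries held both the highest and the lowest of the 9 values, a 3.67-fold range, against a 1.16-fold range within Sham. The log2FC of SCI against Sham was 0.23 ± 0.18 SE (95% interval −0.19 to 0.66, edgeR adjusted p = 0.31). In all, the SCI and Sham libraries did not overlap for 4 of the 7 genes (Pmp22, Ncmap, Egr2 and Pou3f1), a share no higher than the 63.6% of all genes tested whose libraries did not overlap.

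**Figure D1:**
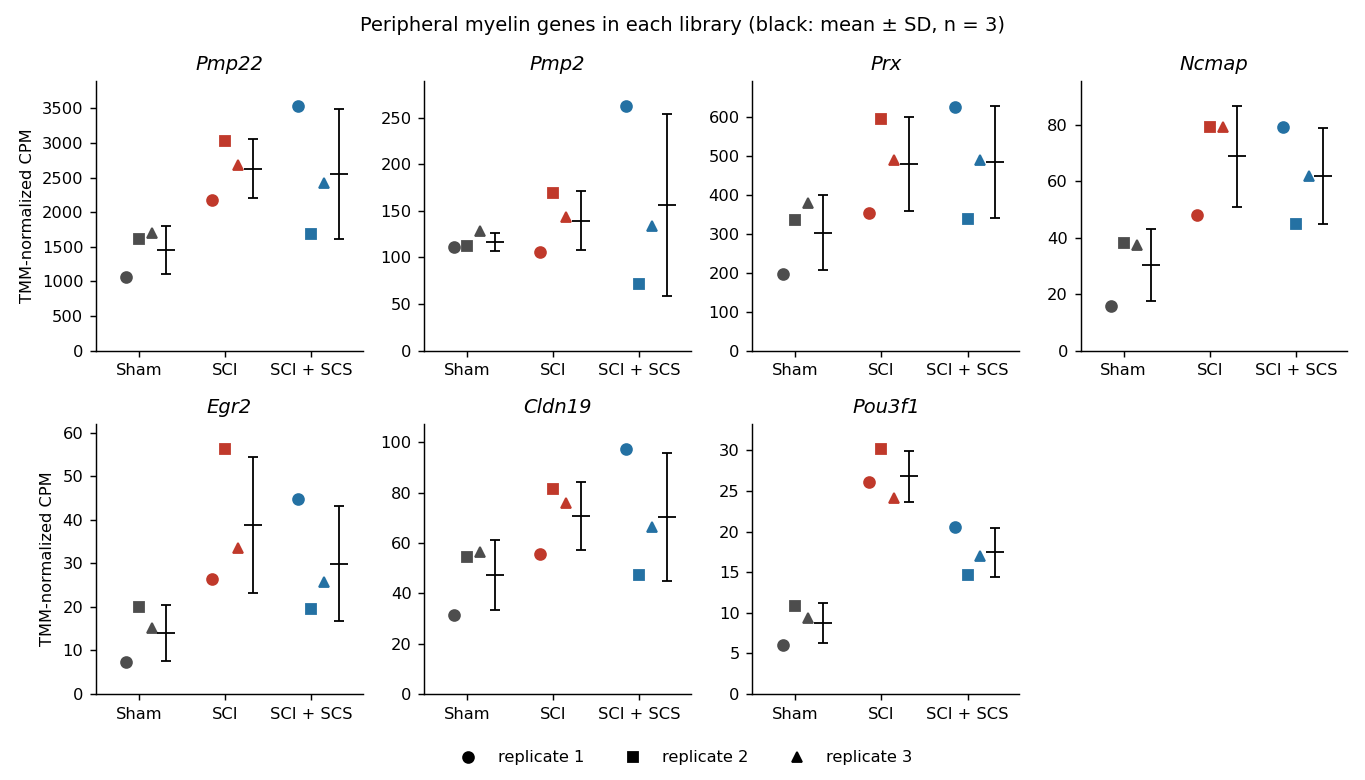
TMM-normalized CPM of the 7 genes in each library, on linear axes that start at 0. Colored points are the 3 rats of each group, and the black bars are the mean ± SD (n = 3). Pou3f1 is the gene whose 3 groups do not overlap, with Sham at 5.99 to 10.8 CPM, SCI + SCS at 14.7 to 20.6 CPM and SCI at 24.1 to 30.2 CPM. Pmp22, Prx and Cldn19 have similar profiles across the libraries, although SCI replicate 1 falls among the Sham libraries for Prx and Cldn19 only.

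The comparison of SCI + SCS with SCI addresses the joint effect of implanted electrode and stimulation on the injured cord. None of the 7 genes was called, and of the 17663 genes tested 1 was called, 0.00566%. At an unadjusted p under 0.05 and the same fold threshold, 988 genes passed, none of them among the 7. DESeq2 called 418 genes higher and 353 lower, again with 0 of the 7 genes.

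Pou3f1 showed the largest absolute difference of the 7. Every SCI + SCS library was below every SCI library, which held for 1 of the 7 genes and for 29.5% of all genes tested in one direction or the other. The log2FC was −0.61 ± 0.15 SE, with a 95% interval of −0.96 to −0.26 (edgeR unadjusted p = 0.00442, adjusted p = 0.0919). DESeq2 gave −0.62 with an adjusted p of 0.00536, under the fold threshold. Over 20 alternative settings the log2FC lay between −0.80 and −0.50, and the adjusted p between 0.00536 and 0.308.

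The structural genes had fold changes near 0 between SCI + SCS and SCI, with wide intervals. For Pmp22 the log2FC was −0.04 (95% interval −0.68 to 0.61), for Prx 0.03 (−0.60 to 0.65) and for Cldn19 0.00 (−0.63 to 0.63). The interval of Ncmap was −0.76 to 0.47 around −0.14, and that of Egr2 −1.25 to 0.51 around −0.37. That of Pmp2, −0.85 to 1.20 around 0.17, was the widest of the structural genes. Differences inside these intervals were not detectable with 3 rats per group.

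The comparison of SCI + SCS with Sham asks what of the injury difference was present in stimulated rats, and it shares its Sham libraries with the first comparison. None of the 7 genes was called, while 11.7% of the 17640 genes tested were called and 6.28% were called higher. The median log2FC was 0.81 over the 7 genes and 0.01 over all genes tested. Pou3f1 came closest, with a log2FC of 1.0 ± 0.24 SE just under the fold threshold (edgeR adjusted p = 0.0243). It was called without Sham replicate 2 (1.18), Sham replicate 3 (1.05) or SCI + SCS replicate 2 (1.1).

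Ncmap had a log2FC of 1.03 ± 0.37 SE against Sham (edgeR adjusted p = 0.0728) and Egr2 1.09 ± 0.44 SE (edgeR adjusted p = 0.10). DESeq2 called both, at 1.01 and 1.07 with adjusted p of 0.0156 and 0.0299, among 1345 genes that it called higher. The libraries of SCI + SCS lay above those of Sham for Ncmap and Pou3f1, 2 of 7 genes, against 53.2% of all genes without overlap. Pmp22 at 0.81, Prx at 0.68, Cldn19 at 0.57 and Pmp2 at 0.42 did not pass the edgeR test, while DESeq2 gave Pmp22 an adjusted p of 0.0237, under the fold threshold.

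**Figure D2:**
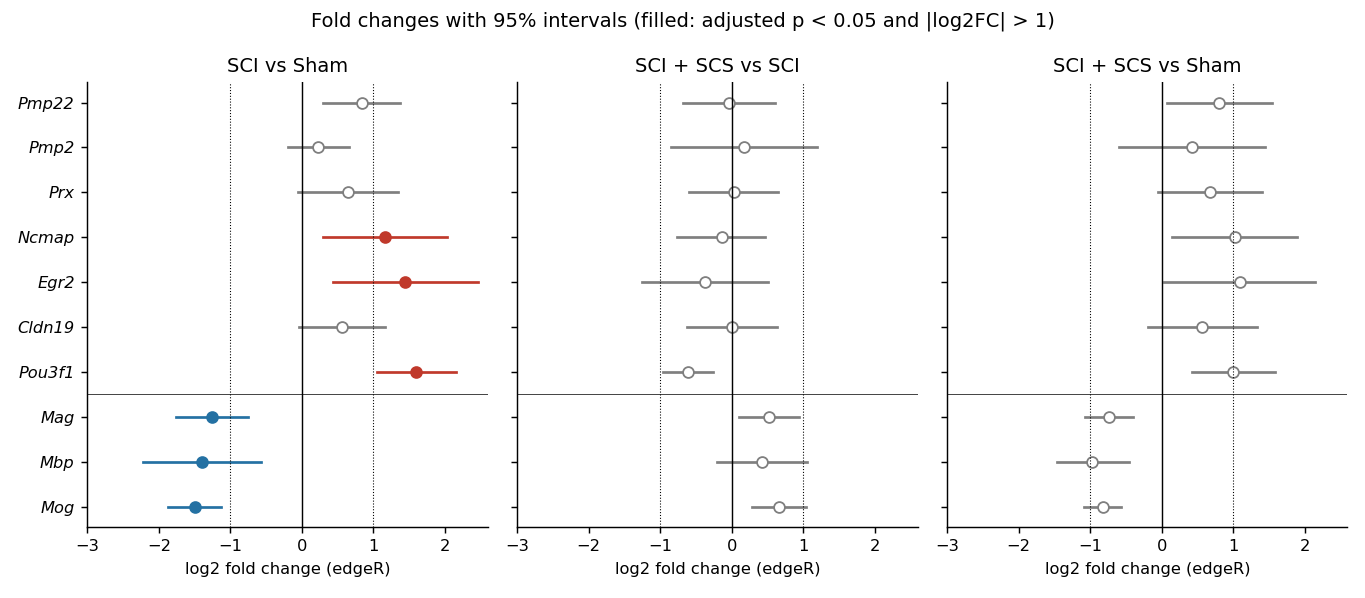
Log2 fold changes with 95% intervals from edgeR in the 3 comparisons, for the 7 genes above the line. Below it are Mag and Mbp, myelin genes that both glia use, and Mog, a myelin gene of oligodendrocytes. Filled points passed both thresholds, and the dotted lines mark a log2FC of −1 and 1. In SCI against Sham, Ncmap, Egr2 and Pou3f1 are filled on the higher side (1.16, 1.45 and 1.60) and Mag, Mbp and Mog on the lower side (−1.26, −1.40 and −1.50).

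To see whether the 7 genes changed in proportion to each other, the count of each was divided by that of Pmp22, the most abundant of them, in the same library. This ratio is free of library scaling, and it was chosen after the values were seen. It is given per 1000 Pmp22 counts, and which cells these counts came from was not tested. Each test on the ratio is a two-sided exact permutation test of 3 against 3 rats, which cannot go below p = 0.1.

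Prx kept close to Pmp22. Its ratio was 184, 208 and 224 in Sham, 162, 197 and 183 in SCI and 177, 201 and 202 in SCI + SCS. The groups overlapped, although the Pmp22 level itself varied 2.11-fold among the SCI + SCS rats alone. The SCI and Sham means of 181 ± 17.6 and 205 ± 20.1 differed by −0.19 on the log2 scale (exact permutation p = 0.2). Cldn19 had 29.5, 33.8 and 33.2 in Sham, 25.5, 26.9 and 28.3 in SCI and 27.6, 28.2 and 27.3 in SCI + SCS. Both injured groups lay below Sham without overlap, by a log2 difference of −0.26 for SCI and −0.21 for SCI + SCS (exact permutation p = 0.1 for each).

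Pou3f1 moved relative to Pmp22, with 5.62, 6.73 and 5.54 per 1000 Pmp22 counts in Sham, 12, 9.98 and 8.99 in SCI and 5.81, 8.78 and 6.99 in SCI + SCS. All SCI libraries were above all others, although SCI + SCS replicate 2 came close to SCI replicate 3. The log2 difference was 0.79 for SCI against Sham (exact permutation p = 0.1, the smallest possible), −0.53 for SCI + SCS against SCI (exact permutation p = 0.1) and 0.26 for SCI + SCS against Sham (exact permutation p = 0.2, libraries overlapping).

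Egr2 had 6.78, 12.4 and 8.91 per 1000 Pmp22 counts in Sham, 12.1, 18.6 and 12.6 in SCI and 12.6, 11.5 and 10.6 in SCI + SCS. SCI replicate 1 lay just below Sham replicate 2, so the groups overlapped, with a log2 difference of 0.64 for SCI against Sham (exact permutation p = 0.2). Ncmap, with 25.9 ± 3.8 in SCI and 20.2 ± 4.67 in Sham, overlapped too (log2 difference 0.38, exact permutation p = 0.3).

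Pmp2 went the other way. Its ratio was 104, 69.9 and 75.3 in Sham, 48.4, 55.7 and 53.3 in SCI and 74.2, 42.7 and 55.2 in SCI + SCS. Every SCI library was below every Sham library, with a log2 difference of −0.64 (exact permutation p = 0.1). The ratio of Drp2, the dystrophin-related partner of periaxin, was likewise lower in each SCI library than in each Sham library, at 35.7 ± 4.21 against 54.4 ± 4.38 (log2 difference −0.61, exact permutation p = 0.1).

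**Figure D3:**
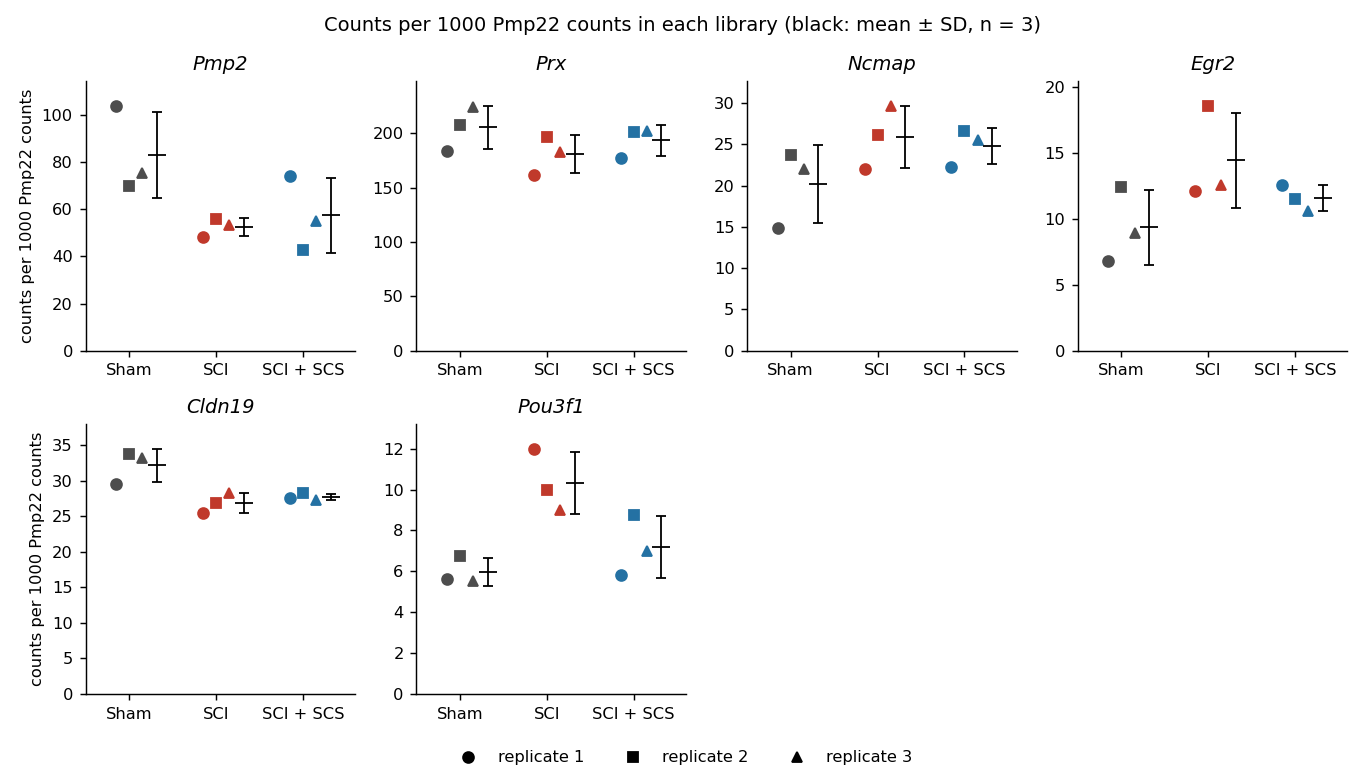
Counts of the other 6 genes per 1000 Pmp22 counts of the same library, on linear axes that start at 0, with 3 rats per group and the mean ± SD in black. Prx overlaps between the groups, at 162 to 224 in all 9 libraries, while Pou3f1 is at 8.99 to 12 in SCI against 5.54 to 6.73 in Sham and Pmp2 is at 48.4 to 55.7 in SCI against 69.9 to 104 in Sham.

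The rats of a group differed from each other along a largely shared profile. Sham replicate 1 had the lowest level in its group for all 7 genes, SCI + SCS replicate 1 the highest and SCI + SCS replicate 2 the lowest. Within SCI, Pou3f1 was lowest in replicate 3 (24.1 CPM, against 26.1 CPM in replicate 1) and the other genes in replicate 1. The highest Sham library was replicate 2 for Ncmap, Egr2 and Pou3f1 and replicate 3 for the other genes. Across the 9 libraries the log2 CPM values of Prx and Cldn19 had a Pearson's r of 0.98, and r was 0.97 between Prx and Pmp22 and 0.96 between Prx and Ncmap. With the group means removed, these values were 0.98, 0.96 and 0.96. Egr2 and Pou3f1 had r = 0.92 with each other, and 0.93 within groups. Pmp2 followed least, from r = 0.36 with Pou3f1 to 0.76 with Cldn19, and from 0.51 to 0.88 within groups. These correlations are descriptions over 9 points that share library, depth and scaling, and they carry no test.

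**Figure D4:**
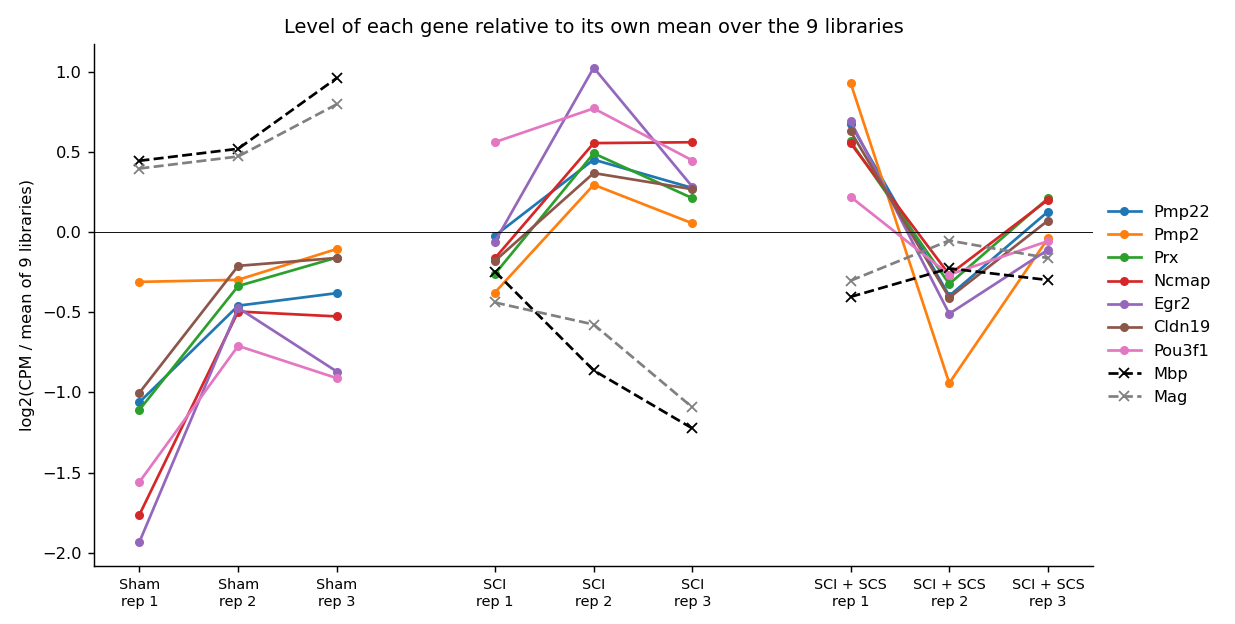
Log2 of CPM over the gene's own mean of the 9 libraries, for the 7 genes (solid lines, circles) and for Mbp and Mag (dashed lines, crosses). Lines join the rats of a group only to trace each gene, since the replicates have no order. The solid lines largely run together, with Sham replicate 1 low and SCI + SCS replicate 1 above SCI + SCS replicate 2. Mbp and Mag are highest in the 3 Sham libraries.

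Outside the 7 genes, the profiles most like that of Prx among the 16686 named genes ranked included those of Dag1 (r = 0.988), Mmp15 (0.981), Arhgap19 (0.977), Cldn22 (0.976), Gldn (0.975), Vgll3 (0.966) and Lsmem2 (0.965). Within groups their r was between 0.954 and 0.983. Dag1 encodes dystroglycan, the laminin receptor to which periaxin is linked through Drp2, and Gldn encodes gliomedin, which clusters sodium channels at peripheral nodes. Cldn22 was low, with a mean level of 0.81 CPM. Among the 7 genes themselves, Cldn19 ranked 3, Pmp22 ranked 9, Ncmap ranked 15, Egr2 ranked 24, Pou3f1 ranked 1199 and Pmp2 ranked 2729, counting Prx itself as 1.

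Wider lists of Schwann cell genes did not move as 1 block after injury. Of all genes tested in SCI against Sham, 13.4% were called higher and 26.9% in either direction. The list counts below stand against these shares. The totals of the Schwann cell lists lay near the 26.9% or below it and do not set these lists apart. Of 17 genes of the Schwann cell membrane and basal lamina, 3 were called higher in SCI than in Sham and 1 lower, with a median log2FC of 0.77. The higher ones were the laminin chains Lama2 (1.61), Lama4 (1.46) and Lamb2 (1.37), which fibroblasts and vessels also make. The lower one was Gjb1 (−1.55), a connexin of gap junctions that oligodendrocytes also express. Drp2 had a log2FC of 0.23 and did not pass the test.

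Among 12 transcriptional regulators of the Schwann cell lineage, 2 were called higher and 0 lower, with a median log2FC of 0.25, and without SCI replicate 2 the total was 1. Nab2, a corepressor that binds Egr2 and its relatives, rose from 18.8 ± 1.89 to 66.4 ± 7.72 CPM (log2FC 1.80 ± 0.13 SE, edgeR adjusted p = 0.000976). Foxd3, a factor of the neural crest and of glial precursors, rose from 3.71 ± 1.9 to 12.4 ± 3.54 CPM (log2FC 1.72 ± 0.45 SE, edgeR adjusted p = 0.0196). In SCI + SCS, Nab2 was at 42.4 ± 7.69 CPM, with every library below every SCI library, and its log2FC against SCI was −0.64 (edgeR adjusted p = 0.0887). Sox10, which Schwann cells and oligodendrocytes share, stayed between means of 222 and 243 CPM in the 3 groups and had a log2FC of 0.12 for SCI against Sham (edgeR adjusted p = 0.543). Jun, which drives the repair state of Schwann cells and is induced in many injured cells, passed the test with a log2FC of 0.97, just under the fold threshold (edgeR adjusted p = 0.00191).

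Of 12 genes of the signals that Schwann cells read or send, 1 was called higher and 3 lower in SCI, with a median log2FC of −0.13. Erbb2, the coreceptor for neuregulin, rose (1.71), and Nrg1, which encodes neuregulin and is made by neurons, fell by 1.84 on the log2 scale. Adam22 (−1.86), a neuronal receptor of Lgi proteins, and Lpar1 (−1.20), a lysophosphatidic acid receptor, were also called lower. Erbb3, which binds neuregulin, had a log2FC of −0.20 and did not pass the test. Of 11 tested genes of the repair state, 2 were called higher, among them Runx2 (2.49), and Bdnf (−1.43) was called lower, with a median of 0.16. The total of 3 was 5 without SCI replicate 1 or Sham replicate 2. Ngfr, the low-affinity neurotrophin receptor, had 544, 7993 and 1065 counts in the Sham libraries, the second being the library with sensory neuron RNA. Its log2FC for SCI against Sham was 0.18 (edgeR adjusted p = 0.86), and 2.02 (edgeR adjusted p = 0.0115) without that library. Of 11 genes of inherited demyelinating neuropathy other than the 7, Sh3tc2 (1.02) was called higher and Gjb1 and Sbf1 (−1.30) lower, with a median of −0.49. With single libraries left out, the totals were 3 to 6 for the membrane and basal lamina genes and 1 to 3 for the regulators. They were 3 to 5 for the signals, 3 to 5 for the repair genes and 2 to 3 for the neuropathy genes. With SCI replicates 1 and 3 both out, the totals called were 1 of the membrane and basal lamina genes, 1 of the regulators, 1 of the signals, 2 of the repair genes and 2 of the neuropathy genes.

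Most myelin genes that oligodendrocytes use were lower in SCI. Of 9 myelin genes that both glia use, 0 were called higher and 6 lower in SCI against Sham, with a median log2FC of −1.26. Mbp fell by 1.40 and Mag by 1.26 on the log2 scale (edgeR adjusted p = 0.016 and 0.00421). The call of Mbp was lost without SCI replicate 2 (−1.34, edgeR adjusted p = 0.0697) or SCI replicate 3 (−1.21, 0.0521). Of 13 oligodendrocyte genes, 0 were called higher and 6 lower, with a median of −1.0, among them Ermn (−2.11), Mog (−1.50) and Opalin (−1.20). The total of 6 was 10 without SCI replicate 1. Over all single libraries left out it was 4 to 10, and 4 to 6 for the shared myelin genes. Each list had 1 gene with a positive log2FC, Sox10 at 0.12 and Aspa, an enzyme of aspartate metabolism in oligodendrocytes, at 0.53, and neither passed the test. With SCI replicates 1 and 3 both out, 0 of the 9 shared myelin genes, 4 of the 13 oligodendrocyte genes and 0 of the 11 neuron genes were called. In SCI + SCS against SCI, 0 genes of any of these lists were called, with a median log2FC of 0.42 for the shared myelin genes, 0.40 for the oligodendrocyte genes and −0.04 for the 7 peripheral genes.

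The balance of peripheral to central myelin transcripts was read as Prx counts per 1000 counts of Mog, a myelin protein of oligodendrocytes alone. This pair, too, was chosen after the values were seen. The ratio was 588, 988 and 1030 in Sham, 2340, 5070 and 4720 in SCI and 3570, 1540 and 2570 in SCI + SCS. Both injured groups lay above Sham without overlap, and they overlapped with each other. The log2 difference was 2.18 for SCI against Sham (exact permutation p = 0.1), 1.52 for SCI + SCS against Sham (exact permutation p = 0.1) and −0.66 for SCI + SCS against SCI (exact permutation p = 0.3).

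Markers of other cells of nerve roots and coverings were read beside the 7 genes. The summed level of 10 fibroblast genes was 421, 1320 and 2110 CPM in Sham, 3580, 5670 and 6270 CPM in SCI and 3970, 2310 and 2570 CPM in SCI + SCS, and 8 of the 10 were called higher in SCI. That count was 2 without Sham replicate 2, SCI replicate 2 or SCI replicate 3, 5 without SCI replicate 1, and 0 with SCI replicates 1 and 3 both out. As with the 7 genes, Sham replicate 1 was the lowest and SCI + SCS replicate 1 the highest of its group. Of 4 perineurial genes, Cldn1 was called higher (1.53), Itgb4, an integrin that Schwann cells also make, had a log2FC of 1.39, and Slc2a1 and Ntn4 had −0.24 and −0.96. The call of Cldn1 was lost without Sham replicate 2 or SCI replicate 3. The 10 sensory neuron genes summed to 327, 643 and 128 CPM in Sham and 105, 57.2 and 38.2 CPM in SCI, without TMM scaling. Their sum was mostly Prph, which motor neurons also express, at TMM-scaled levels of 332, 346 and 120 CPM in Sham. Of the 8 sensory neuron genes tested, 0 were called higher and 4 lower in SCI, with log2FC from −6.64 to −1.21 (median −4.46). That total was 1 to 6 with single libraries left out. Avil, another gene of the list, was at 2.15 and 2.95 CPM in Sham replicates 1 and 3 and at 97.7 CPM in Sham replicate 2. In SCI it was at 4.31 to 5.28 CPM. Aspa, Avil, Cd3e, Cd4, Itgb4, Ntn4, Prph and Slc2a1 were named after their values were seen. The part of attached root, dura and scar tissue in the differences of the 7 genes was not tested.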

How the data were processed

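Poly(A) RNA of spinal cord from 9 rats was sequenced as paired-end DNBSEQ libraries. Per the submitters' processing notes, reads were trimmed with fastp 0.23.2 and aligned with HISAT2 2.2.1 to mRatBN7.2. The counting program is not given in the sources used here. The authors deposited raw counts per gene and FPKM values, which divide counts by gene length and library size, for all 9 libraries. Of 30507 rows, 4340 had no symbol and stayed in the tests.

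Counts were tested with edgeR 4.0.16 (R 4.3.3) by the quasi-likelihood test, with TMM normalization, filterByExpr, the 6 libraries of each comparison and Benjamini-Hochberg adjustment over all genes tested. A gene was called at an adjusted p under 0.05 and an absolute log2FC over 1, the thresholds of the study's methods, which name DESeq2. DESeq2 1.42.0 was run as an alternative, as was limma 3.58.1 on log2(FPKM + 1). Intervals are 95% intervals of the fitted model. Scripts were tested on simulated counts with 200 genes changed 4-fold. In the simulation of SCI + SCS against Sham, 38 of 212 DESeq2 calls were false, against 12 of 171 edgeR calls. DESeq2 recovered 87% of the changed genes and edgeR 79.5%. For SCI against Sham, 62 of 238 and 13 of 166 calls were false, and for SCI + SCS against SCI 31 of 207 and 13 of 178. The simulated counts used the spread that edgeR estimated. Far fewer genes were changed than the 4800 called in SCI against Sham, so these rates need not hold in the data.

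The labels give replicate numbers 1 to 3 in each group, as separate rats, and name a single sequencing batch. The 7 genes and all gene lists were chosen with earlier results of these data known. The named genes are the 7, Sox10, Mbp, Mag, Erbb3, Ngfr, Jun, Drp2, at most 3 called genes per list with the largest change and no overlap, and the 8 genes most like Prx. Some genes that this rule names are not reported here. Scn10a and the 2 count ratios were chosen after their values were seen.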

Additional observations from a re-analysis of the deposited data

How the results depend on the processing

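For the 7 genes, 413 fold changes were set against the thresholds over the alternatives. Those without a fold threshold and with unadjusted p came from the reported fit and changed only the threshold. Of the 413, 390 stayed on the same side of the thresholds, 12 lost a call, 11 gained one and 0 reversed a called direction. In 26 cases a fold change that was not called as reported had the opposite sign. The number of the 7 genes called in SCI against Sham, 3 as reported, was 1 with limma on log2(FPKM + 1) without a filter, 0 with SCI replicates 1 and 3 left out together, and 1 to 3 with single libraries left out. For SCI + SCS against Sham, 0 as reported, it was 2 with DESeq2, 1 with at least 10 counts in every library, 1 without a fold threshold, 2 with unadjusted p, 1 with limma on log2(FPKM + 0.1), and 0 to 1 with single libraries left out. For SCI + SCS against SCI it was 0 in every alternative. Each of the 7 genes had at least 381 counts in every library. Counting error was not separated from the spread between rats.

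The number of all genes called in SCI against Sham, 4800 as reported, was 8796 without a fold threshold, 2649 with limma on log2(FPKM + 1), 2550 with the same and no filter, and 777 with SCI replicates 1 and 3 out (3908 to 5108 with single libraries out). For SCI + SCS against SCI, 1 as reported, it was 771 with DESeq2, 988 with unadjusted p, 20 and 19 with limma on log2(FPKM + 1) and log2(FPKM + 0.1), 3 with SCI replicates 1 and 3 out, 0 with at least 10 counts in every library, 0 with rows of one identifier summed, and 0 to 123 with single libraries out. For SCI + SCS against Sham, 2068 as reported, it was 5710 without a fold threshold, 921 with limma on log2(FPKM + 1), 843 with the same and no filter, and 950 to 2891 with single libraries out. The cause was not tested.

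Rats with the same replicate number shared little of their deviation from the group means. The r was 0.15, −0.09 and 0.12 between SCI and Sham and −0.08, −0.04 and −0.11 between SCI + SCS and SCI. Between SCI + SCS and Sham it was −0.22, 0.01 and −0.21. These values cannot tell whether rats were paired in handling. With the replicate block, 3, 0 and 0 of the 7 genes were called in SCI against Sham, SCI + SCS against SCI and SCI + SCS against Sham, and 4656, 0 and 715 of all genes.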
